A study of Homo sapiens with 16 samples.

Results

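Annexins are a family of calcium-dependent proteins that bind acidic phospholipids on the inner face of cell membranes and link them to the cytoskeleton. The 9 genes ANXA1, ANXA2, ANXA3, ANXA4, ANXA5, ANXA6, ANXA7, ANXA9 and ANXA11 were taken from the deposited gene count table by their symbols, and they make up 9 of its 25370 genes. They were followed across 16 RNA-seq libraries of HMC3 cells, an established cell line described as human microglia, with 2 libraries for each of 8 conditions. All cells were starved of serum before treatment and treated for 24 h in medium free of serum and phenol red, including the vehicle cells. The conditions were vehicle, estradiol (E2, 0.1 nM), ketamine (400 nM), its metabolites (2R,6R)-hydroxynorketamine ((2R,6R)-HNK, 400 nM) and (2S,6S)-hydroxynorketamine ((2S,6S)-HNK, 400 nM), and each of these 3 compounds at 400 nM joined by E2 at 0.1 nM, which are named with the prefix E2+ here. The 2 HNK forms are mirror images of each other. The family was picked because of the level of ANXA1 in E2+(2R,6R)-HNK against vehicle, so the values of that comparison are given as a description with no test for any annexin, and ANXA1 carries no test wherever vehicle or E2+(2R,6R)-HNK libraries enter. ANXA1 was the only annexin of the 9 to lie 1 or more below vehicle on the log2 scale there, at -1.96, where 6.43% of all genes did, and the next in size were ANXA2 at -0.72 and ANXA9 at 0.71.

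In most tissues ANXA1 is known as a protein induced by glucocorticoids that lowers phospholipase A2 activity and, once outside the cell, signals through formyl peptide receptors to end inflammation. ANXA2 pairs with S100A10 at the cell surface, where the complex binds plasminogen and its activator. ANXA5 coats membranes that expose phosphatidylserine, ANXA6 carries a duplicated annexin core, and ANXA1, ANXA2, ANXA4, ANXA5 and ANXA6 have been tied to the repair of torn plasma membranes. ANXA7 and ANXA11 have long N-terminal tails, and ANXA11 links RNA granules to lysosomes.

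The libraries held 55300614 to 81646165 counts, and all 9 annexins were among the 16004 genes that passed the filter on low counts. Defining microglial markers were absent or nearly so: AIF1, CX3CR1, P2RY12, TMEM119, ITGAM, PTPRC and SPI1 had 0 to 7 counts in every library and C1QA had 0 in all of them. In all, 8 of 11 microglial markers failed the filter, and the summed level of the list, most of it from CD68, was 18.8 to 22.1 CPM (counts scaled to library size) in vehicle and 19.48 to 25.03 CPM in the treated libraries. Markers of fibroblasts or pericytes summed to 4390 to 4396 CPM in vehicle and 3961 to 5863 CPM in the treated libraries. COL1A1 made up most of that sum, with a mean of 4045 CPM in vehicle, while COL3A1 had 0 to 6 counts a library and ACTA2 stood at 1.64 CPM in vehicle. The sources do not say if libraries that share a condition are separate cultures, so p-values measure only the spread between these libraries, and an exact permutation of 2 against 2 libraries cannot reach 0.05. In bulk RNA, fewer cells of a type and less RNA per cell cannot be told apart. The log2 fold changes against vehicle followed the GC content of exons across all genes, with Spearman correlations of 0.451 to 0.779 across genes in the 7 treatments, and genes of low GC were lower. Each result is therefore given as counted and, where it matters, after a correction for exon GC content and transcript length. Exon GC content was 40.8% for ANXA1, 47.4% for ANXA2, 41.3% for ANXA3, 40.9% for ANXA4, 43.4% for ANXA5, 53.8% for ANXA6, 42.7% for ANXA7, 54.6% for ANXA9 and 52.5% for ANXA11, against a median of 49.4% over the genes tested.

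Promoter windows of ANXA1 and ANXA2 are printed here, since both genes were lower in every treatment. Each window runs from 250 bases before to 50 bases after the start of the gene, 5′ to 3′ on the strand of the gene, from RefSeq on GRCh38.p14. They lie at chr9:73151615-73151914 on the plus strand for ANXA1 and at chr15:60397937-60398236 on the minus strand for ANXA2. Capitals mark matches on either strand to 4 motifs. The first was TTCNNNGAA, the letters of a STAT site. Another was the TATA box, searched as TATAAA. The third was the CCAAT box, searched by those 5 letters. The last was the Sp1 box, searched as GGGCGG. A match on the opposite strand appears as the reverse complement of these letters.
ANXA1: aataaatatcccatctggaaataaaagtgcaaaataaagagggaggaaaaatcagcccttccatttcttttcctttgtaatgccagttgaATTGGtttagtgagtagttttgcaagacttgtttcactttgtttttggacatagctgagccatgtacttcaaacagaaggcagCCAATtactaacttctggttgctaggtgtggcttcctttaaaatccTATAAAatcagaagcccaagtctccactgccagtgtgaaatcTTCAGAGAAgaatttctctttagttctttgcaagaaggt
ANXA2: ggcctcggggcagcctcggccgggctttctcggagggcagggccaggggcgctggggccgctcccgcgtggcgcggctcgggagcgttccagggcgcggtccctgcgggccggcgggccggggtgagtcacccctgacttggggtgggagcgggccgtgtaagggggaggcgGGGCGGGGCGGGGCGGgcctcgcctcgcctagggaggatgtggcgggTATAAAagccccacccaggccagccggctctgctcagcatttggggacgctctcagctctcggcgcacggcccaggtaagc

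The ANXA1 window, with 37.7% GC, held the STAT letters once, the TATA box once and the CCAAT box in 2 places, and no Sp1 box. The windows of ANXA2, ANXA3, ANXA4, ANXA5, ANXA6, ANXA7 and ANXA9 did not hold the STAT letters, which were found in 7.66% of the 35116 promoter windows of the same length. No window of ANXA11 is reported here. The ANXA2 window, with 76% GC, held the TATA box once and 3 overlapping copies of the Sp1 box. The TATA box was found in 11.5% of all windows, the CCAAT box in 34.6% and the Sp1 box in 45%, and the median GC content of the windows was 58.7%. A match is a stretch of letters and not a measured site of binding.

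The annexins spanned a wide range of levels. On the scale of RPKM (counts scaled to library size and gene length, using the length of the canonical transcript), the vehicle mean was 1924 for ANXA2, 416 for ANXA5, 117 for ANXA6, 115 for ANXA1, 51.4 for ANXA7, 29.2 for ANXA3, 22.5 for ANXA11, 5.29 for ANXA4 and 0.822 for ANXA9. ANXA2 ranked 17 among the 16004 genes by CPM in vehicle. Together the 9 genes took 0.445% and 0.449% of all counts in the vehicle libraries and 0.321% in each E2+(2R,6R)-HNK library, which were the highest and the lowest shares. The highest condition mean was 3.9 times the lowest for ANXA1, 1.81 times for ANXA9, 1.65 times for ANXA2, 1.62 times for ANXA3 and 1.53 times for ANXA11. It was 1.32 times for ANXA4, 1.26 times for ANXA6, 1.16 times for ANXA5 and 1.11 times for ANXA7. Over all genes tested the median was 1.75 times and the upper 95th percentile 4.01 times. For ANXA1 these conditions were vehicle and E2+(2R,6R)-HNK, the comparison by which the family was picked, so its value is a description only.

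**Figure D1:**
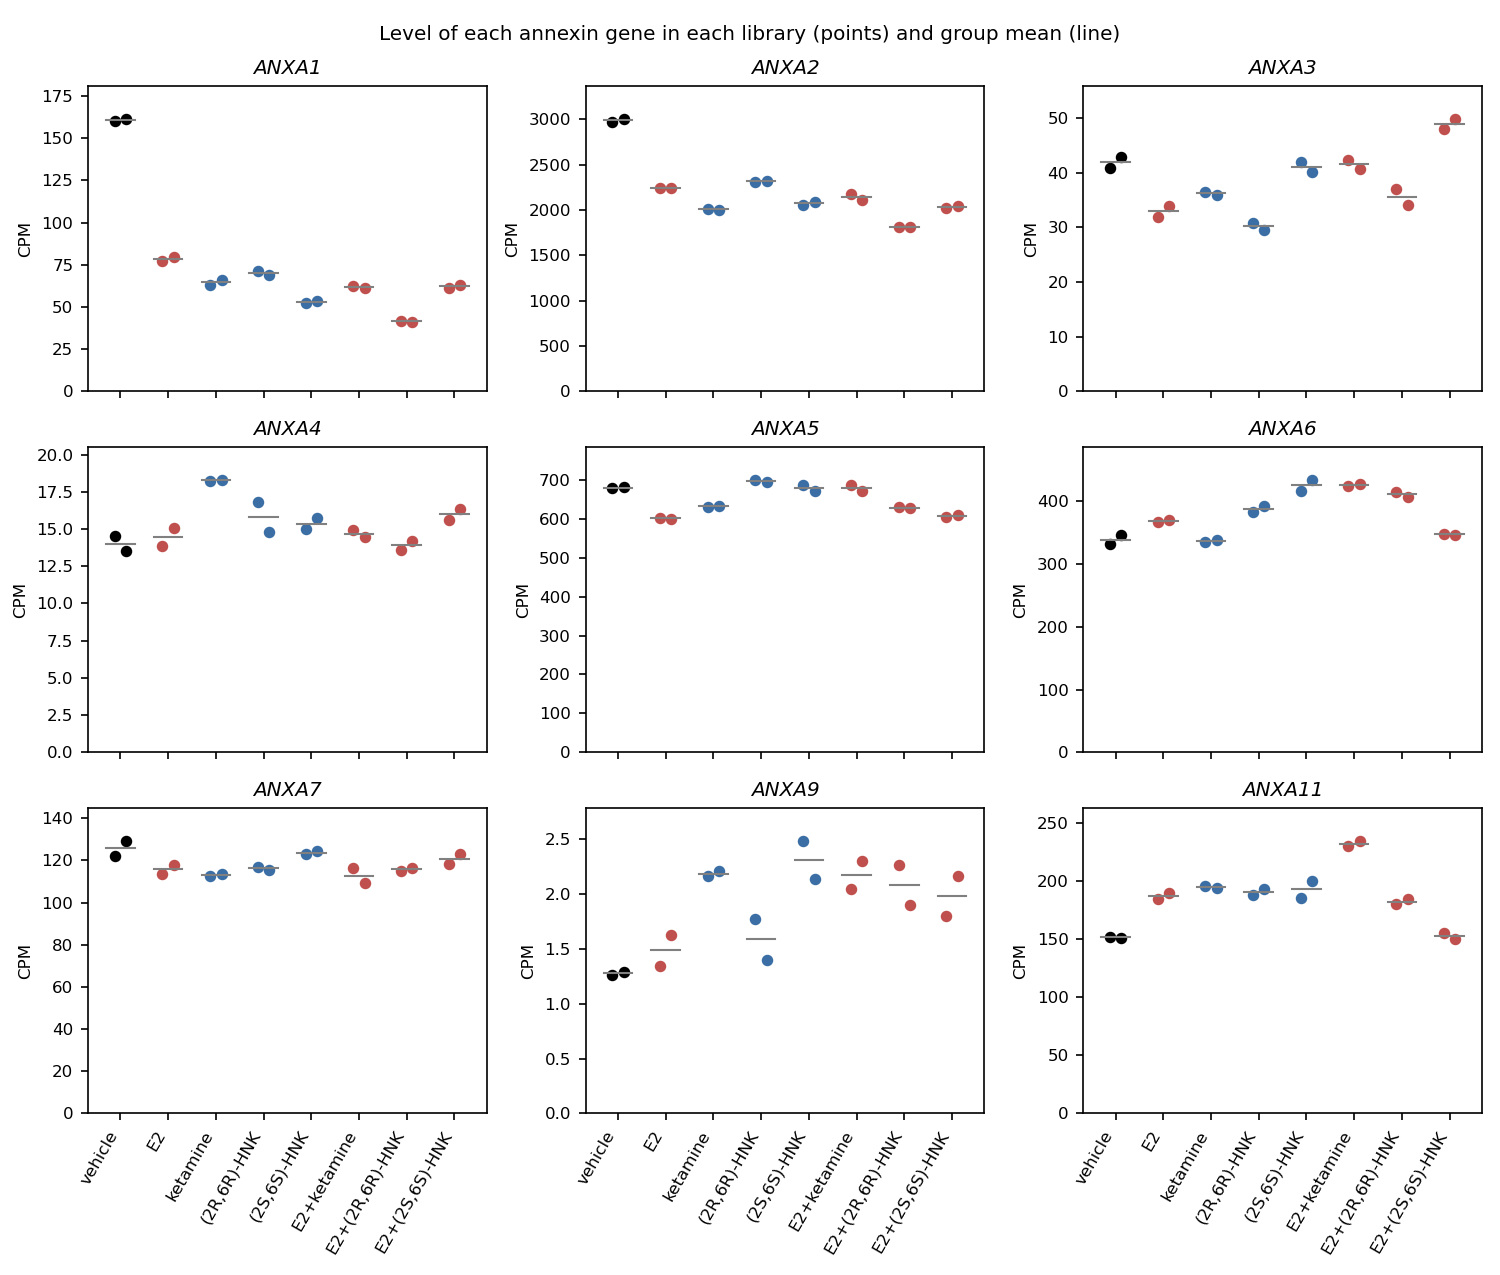
Level of each annexin in CPM (vertical axis, from 0) in each of the 16 libraries (points), grouped by condition (horizontal axis), with the condition mean as a line. Black points are vehicle, blue points the compounds alone and red points the conditions with E2. Both vehicle libraries of ANXA1 (161 and 162 CPM) and ANXA2 (2973 and 3007 CPM) lie above all 14 treated libraries.

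ANXA1 (chr9:75766781-75785309, GRCh37, plus strand), the glucocorticoid-induced annexin that restrains phospholipase A2, was highest in vehicle, where it stood at 161 and 162 CPM. With a single agent it stood at 77.2 and 79.6 CPM in E2, 63.1 and 65.9 CPM in ketamine, 71.5 and 69.1 CPM in (2R,6R)-HNK and 52.3 and 53.4 CPM in (2S,6S)-HNK. With E2 and a compound it stood at 62.5 and 61.2 CPM in E2+ketamine, 41.6 and 41.1 CPM in E2+(2R,6R)-HNK and 61.1 and 63.2 CPM in E2+(2S,6S)-HNK. All 14 treated libraries lay below both vehicle libraries, and the condition means were 48.7% of vehicle in E2, 43.7% in (2R,6R)-HNK, 40.1% in ketamine, 38.6% in E2+(2S,6S)-HNK, 38.4% in E2+ketamine, 32.8% in (2S,6S)-HNK and 25.7% in E2+(2R,6R)-HNK. In this order each condition was clear of its neighbours except that the ranges of ketamine, E2+(2S,6S)-HNK and E2+ketamine overlapped one after the other. On the log2 scale the differences from vehicle ran from -1.04 in E2 to -1.96 in E2+(2R,6R)-HNK with standard errors near 0.04. After correction for GC content and length they ran from -0.57 to -1.42 and remained negative in all 7 treatments. ANXA3 and ANXA4, whose exons have nearly the same GC content as those of ANXA1, stood above vehicle after that correction in 6 and 7 of the 7 treatments.

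ANXA2 (chr15:60639333-60695082, GRCh37, minus strand), the partner of S100A10, stood at 2973 and 3007 CPM in vehicle. With a single agent it stood at 2238 and 2244 CPM in E2, 2006 and 2004 CPM in ketamine, 2308 and 2323 CPM in (2R,6R)-HNK and 2059 and 2090 CPM in (2S,6S)-HNK. With E2 and a compound it stood at 2173 and 2108 CPM in E2+ketamine, 1809 and 1809 CPM in E2+(2R,6R)-HNK and 2021 and 2047 CPM in E2+(2S,6S)-HNK. As with ANXA1, no treated library reached either vehicle library, and E2+(2R,6R)-HNK was the lowest condition. ANXA2 fell in all 6 treatments in which it was tested, by 0.37 (SE 0.018) on the log2 scale in (2R,6R)-HNK (edgeR quasi-likelihood, Benjamini-Hochberg adjusted p = 5.42e-24) to 0.58 (SE 0.018) in ketamine (adjusted p = 3.65e-31). In E2+(2R,6R)-HNK its log2 fold change was -0.72 (SE 0.018). After correction for GC content and length the 7 differences were -0.25 to -0.57, and the 6 tested ones passed the same edgeR test again. A processed copy of ANXA2 in the genome, ANXA2P2, had 427 to 678 counts a library against 112835 to 181852 for ANXA2. The study counted uniquely mapped read pairs, so those fitting both genes equally well would be missing from both counts. How many were lost or misplaced is not known.

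Across the 16 libraries, log2 CPM of ANXA1 and ANXA2 had a Pearson correlation of 0.96, given as a description, since the libraries share conditions and the vehicle libraries are high for both. Among the 10366 genes with a mean of at least 5 CPM, the patterns most like that of ANXA1 were those of PRDX1, a peroxiredoxin (r = 0.99), HSPH1, a heat shock protein (r = 0.99), and KIAA1524 (r = 0.99). The patterns most like that of ANXA2 were those of RAN, the nuclear transport GTPase (r = 0.98), HMMR, a hyaluronan receptor (r = 0.97), and TIMM8A, a mitochondrial import chaperone (r = 0.97). These genes have exon GC contents of 34.8% to 46.2%, all below the median of the genes tested.

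ANXA11 (chr10:81910645-81965328, GRCh37, minus strand), the annexin of RNA granules, stood at 152 and 151 CPM in vehicle. It stood at 185 and 190 CPM in E2, 196 and 194 CPM in ketamine, 188 and 193 CPM in (2R,6R)-HNK and 186 and 201 CPM in (2S,6S)-HNK. With E2 it stood at 230 and 235 CPM in E2+ketamine, 180 and 184 CPM in E2+(2R,6R)-HNK and 155 and 151 CPM in E2+(2S,6S)-HNK. Only the libraries of E2+(2S,6S)-HNK overlapped with vehicle, and those of E2+ketamine were above all others. ANXA11 rose by 0.30 (SE 0.031) on the log2 scale in E2, 0.36 (SE 0.030) in ketamine, 0.33 (SE 0.030) in (2R,6R)-HNK and 0.35 (SE 0.031) in (2S,6S)-HNK, with adjusted p from edgeR of 2.10e-12, 6.88e-15, 1.00e-13 and 1.66e-14. In E2+ketamine it rose by 0.61 (SE 0.030, edgeR adjusted p = 5.74e-24). In E2+(2S,6S)-HNK the log2 fold change was 0.01 (SE 0.031, edgeR adjusted p = 0.752). The 5 rises passed the test again after correction for GC content and length, at 0.20 to 0.53. The patterns most like it were those of PHC2, a Polycomb protein (r = 0.98), PDK2, a pyruvate dehydrogenase kinase (r = 0.98), and DUSP1, a MAP kinase phosphatase (r = 0.97). These genes have exon GC contents of 55.2% to 60.4%, all above the median of the genes tested.

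ANXA6 (chr5:150480267-150537376, GRCh37, minus strand), the annexin with a duplicated core, stood at 331 and 346 CPM in vehicle, 367 and 370 CPM in E2, 336 and 338 CPM in ketamine, 383 and 392 CPM in (2R,6R)-HNK and 416 and 434 CPM in (2S,6S)-HNK. With E2 it stood at 424 and 427 CPM in E2+ketamine, 415 and 407 CPM in E2+(2R,6R)-HNK and 348 and 346 CPM in E2+(2S,6S)-HNK. Ketamine overlapped with vehicle, E2+(2S,6S)-HNK stood at its upper edge, and the other 5 treatments lay above it. ANXA6 rose by 0.12 (SE 0.025) on the log2 scale in E2, 0.19 (SE 0.025) in (2R,6R)-HNK, 0.33 (SE 0.025) in (2S,6S)-HNK and 0.33 (SE 0.025) in E2+ketamine, with adjusted p from edgeR of 2.43e-05, 1.28e-09, 1.02e-16 and 5.48e-17. In ketamine and E2+(2S,6S)-HNK its log2 fold changes were -0.01 and 0.04 (edgeR adjusted p = 0.804 and 0.205). After correction for GC content and length the rises remained in (2S,6S)-HNK (0.12) and E2+ketamine (0.06), while the values in E2 (-0.04) and (2R,6R)-HNK (-0.02) did not pass the test. In ketamine the corrected value of ANXA6 was -0.13, and it passed (adjusted p = 4.44e-08).

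ANXA9 (chr1:150954725-150968110, GRCh37, plus strand), an annexin whose core has lost calcium-binding residues, was the lowest member, with 77 to 185 counts a library. It stood at 1.26 and 1.29 CPM in vehicle and at 1.35 to 2.48 CPM in the 14 treated libraries, all above vehicle. It rose by 0.77 (SE 0.20) in ketamine, 0.85 (SE 0.20) in (2S,6S)-HNK, 0.77 (SE 0.20) in E2+ketamine and 0.63 (SE 0.20) in E2+(2S,6S)-HNK on the log2 scale, with adjusted p from edgeR of 0.000584, 0.000204, 0.000695 and 0.00588. In E2 and (2R,6R)-HNK the log2 fold changes were 0.22 (SE 0.21) and 0.33 (SE 0.21), and neither passed (edgeR adjusted p = 0.385 and 0.162). The call in E2+(2S,6S)-HNK was lost without its second library, and that in E2+ketamine was lost after correction for GC content and length (0.41, adjusted p = 0.0910).

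For ANXA3, ANXA5 and ANXA7 most differences from vehicle turned in direction with the correction, and for ANXA4 they grew. ANXA3 (chr4:79472901-79531605, GRCh37, plus strand), a phospholipase A2 inhibitor, stood at 40.9 and 42.9 CPM in vehicle, 32.0 and 33.9 CPM in E2, 36.5 and 35.9 CPM in ketamine, 30.9 and 29.5 CPM in (2R,6R)-HNK and 48.0 and 49.9 CPM in E2+(2S,6S)-HNK. It fell by 0.35 (SE 0.051) on the log2 scale in E2, 0.21 (SE 0.049) in ketamine and 0.47 (SE 0.051) in (2R,6R)-HNK, and it rose by 0.23 (SE 0.049) in E2+(2S,6S)-HNK, with adjusted p from edgeR of 4.52e-08, 0.000241, 1.20e-11 and 7.87e-05. With the correction the first 3 became 0.10, 0.17 and -0.02, and the last became 0.49. The difference from vehicle in E2+(2S,6S)-HNK was the only one of these 4 whose sign and call held.

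ANXA5 (chr4:122589101-122618150, GRCh37, minus strand), the phosphatidylserine-binding annexin used as an apoptosis stain, stood at 680 and 681 CPM in vehicle and 601 to 700 CPM in the treated libraries. It fell by 0.18 (SE 0.021) on the log2 scale in E2, 0.11 (SE 0.021) in ketamine and 0.16 (SE 0.021) in E2+(2S,6S)-HNK, with adjusted p from edgeR of 2.57e-10, 1.89e-05 and 2.34e-09, and all 3 were positive after the correction (0.17, 0.19 and 0.04). The call of ANXA5 in ketamine was lost under upper-quartile scaling (-0.023). In (2R,6R)-HNK the log2 fold change of ANXA5 was 0.03 (edgeR adjusted p = 0.150), and it passed under DESeq2, RLE and upper-quartile scaling and after the correction (0.39). ANXA7 (chr10:75134859-75173834, GRCh37, minus strand), the synexin of granule fusion, stood at 122 and 129 CPM in vehicle and 109 to 125 CPM in the treated libraries. It fell by 0.11 to 0.15 on the log2 scale in E2, ketamine, (2R,6R)-HNK and E2+ketamine, with edgeR adjusted p of 0.00210, 0.000116, 0.00307 and 6.17e-05, and it was 0.16 to 0.37 above vehicle in the same treatments after the correction. The call of ANXA7 in (2R,6R)-HNK was also lost under DESeq2, RLE and upper-quartile scaling and without the second vehicle library. Its call in E2 was lost under upper-quartile scaling, without the second vehicle library and without the first E2 library, and that in ketamine under upper-quartile scaling. Its exons overlap by 105 bases with a gene on the other strand that is not in the table. ANXA4 (chr2:69871557-70054244, GRCh37, plus strand), an annexin of secretory epithelia, stood at 14.5 and 13.5 CPM in vehicle and 13.6 to 18.3 CPM in the treated libraries, highest in ketamine with 18.2 and 18.3 CPM. It rose by 0.38 (SE 0.071) on the log2 scale in ketamine (edgeR adjusted p = 6.46e-06). It rose by 0.18 in (2R,6R)-HNK and 0.19 in E2+(2S,6S)-HNK (edgeR adjusted p = 0.0271 and 0.0229), and both calls were lost without the second vehicle library, the first also without the first (2R,6R)-HNK library and the other without the second E2+(2S,6S)-HNK library. The correction left ANXA4 at 0.46 to 0.75 above vehicle in all 7 treatments.

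Counted over the 8 annexins other than ANXA1, 6 passed edgeR's test in E2 (2 higher and 4 lower), where 62.5% of all genes passed (29.9% higher and 32.7% lower). In ketamine 7 passed (3 higher and 4 lower) against 59.3% of all genes (26.8% higher and 32.5% lower). In (2R,6R)-HNK 6 passed (3 and 3) against 66.6% (31.7% and 34.9%), and in (2S,6S)-HNK 4 passed (3 and 1) against 67.9% (32.1% and 35.8%). In E2+ketamine 5 passed (3 and 2) against 71.7% (34.3% and 37.4%), and in E2+(2S,6S)-HNK 5 passed (3 and 2) against 59.7% (24% and 35.7%). Without the second E2+(2S,6S)-HNK library 3 annexins passed there in place of 5. In E2+(2R,6R)-HNK, where 69.7% of all genes passed and 51.3% were below vehicle, 6 of 9 annexins were lower and 3 higher, with no test. The 6 include ANXA1, whose level in that comparison picked the family. The largest difference of a tested annexin was 0.85, for ANXA9 in (2S,6S)-HNK, and the 7 comparisons share the vehicle libraries. After the correction the annexins that passed numbered 5 in E2 (4 higher and 1 lower) against 36.5% of all genes, and 8 in ketamine (6 and 2) against 47.9%. They numbered 5 in (2R,6R)-HNK (4 and 1) against 43.9% and 8 in (2S,6S)-HNK (7 and 1) against 56.2%. With E2 they numbered 7 in E2+ketamine (6 and 1) against 50.9% and 6 in E2+(2S,6S)-HNK (5 and 1) against 55.6%. ANXA2 was the lower one in each, joined by ANXA6 in ketamine.

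**Figure D2:**
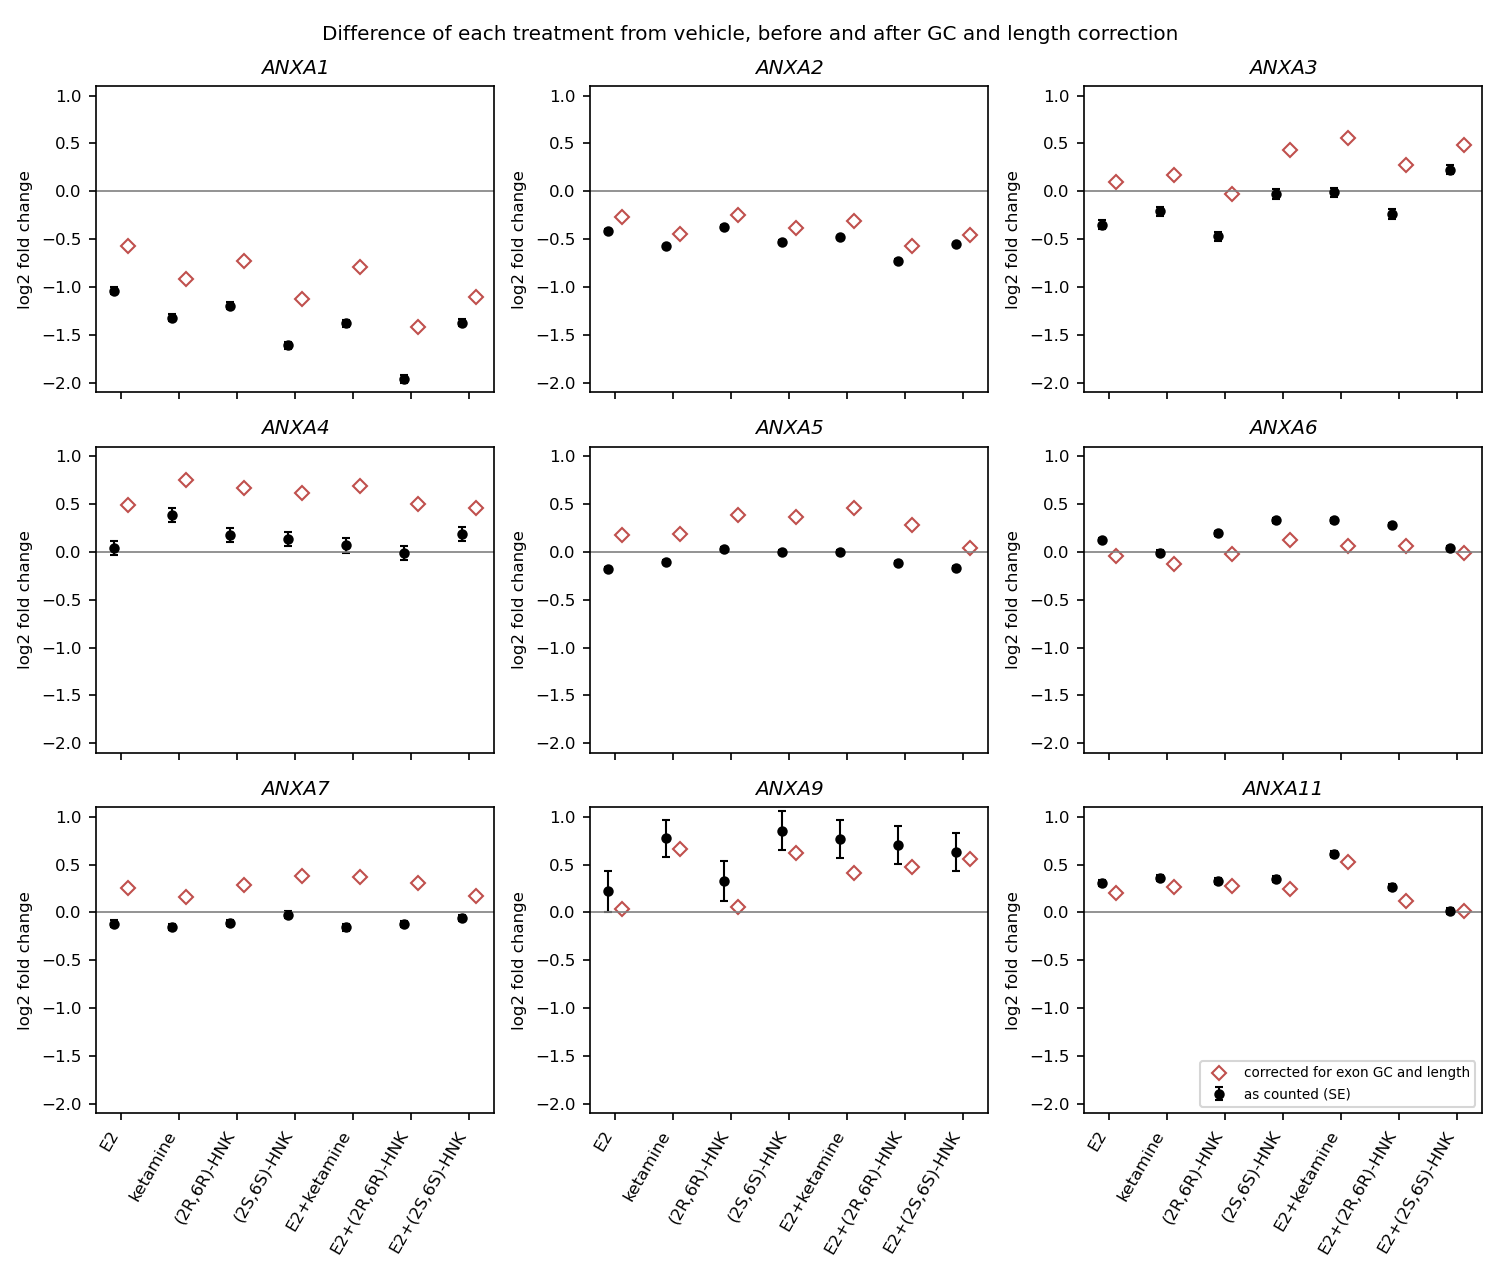
Log2 fold change against vehicle (vertical axis) of each annexin in the 7 treatments (horizontal axis). Black points are values as counted with their standard error, and open diamonds the values corrected for exon GC content and transcript length. ANXA1 and ANXA2 are below 0 in both, while ANXA7 lies just below 0 as counted and above 0 after correction.

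The compounds were compared with each other at 400 nM and 24 h, in 3 pairs without E2 and 3 pairs with E2, and p-values were also adjusted for each annexin over its pairs, which were 6, or for ANXA1 the 4 without E2+(2R,6R)-HNK. This second adjustment is printed for ANXA1 between the mirror images without E2 and where it ends a call. Without E2 the mirror-image metabolites differed in 6 of 9 annexins, against 43.5% of all genes. ANXA1 was 0.41 (SE 0.039) higher on the log2 scale in (2R,6R)-HNK than in (2S,6S)-HNK (edgeR adjusted p = 8.78e-13, over its 4 pairs 1.23e-13), and the corrected difference was 0.39. ANXA2 was 0.16 (SE 0.018) higher (edgeR adjusted p = 1.64e-10), whereas ANXA3 was 0.44 (SE 0.051) lower (edgeR adjusted p = 4.61e-10) and ANXA6 0.13 (SE 0.025) lower (edgeR adjusted p = 1.13e-05) in (2R,6R)-HNK. ANXA9 was 0.53 (SE 0.19) lower with an edgeR adjusted p of 0.0232, which became 0.0535 over the 6 pairs, and the call was lost under DESeq2 and without the second (2R,6R)-HNK or the first (2S,6S)-HNK library. ANXA7 was 0.09 (SE 0.034) lower (edgeR adjusted p = 0.0275), and that call was lost under DESeq2, in a fit of the 2 groups alone and without either (2R,6R)-HNK library or the second (2S,6S)-HNK library. For ANXA4, ANXA5 and ANXA11 the 95% intervals of the difference were -0.10 to 0.19, -0.01 to 0.08 and -0.08 to 0.04.

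With E2 the order of the mirror images turned for ANXA1, ANXA2 and ANXA6. ANXA1 was 0.59 (SE 0.039) lower on the log2 scale in E2+(2R,6R)-HNK than in E2+(2S,6S)-HNK, given with no test, and 0.32 lower after the correction. ANXA2 was 0.17 (SE 0.018) lower (edgeR adjusted p = 1.56e-11), ANXA6 was 0.24 (SE 0.025) higher (edgeR adjusted p = 5.06e-12) and ANXA11 was 0.25 (SE 0.030) higher (edgeR adjusted p = 5.40e-10) in E2+(2R,6R)-HNK. ANXA3 was 0.46 (SE 0.049) lower (edgeR adjusted p = 1.49e-11), as it was without E2. After the correction these differences passed again but were smaller, at -0.12 for ANXA2, 0.075 for ANXA6, 0.11 for ANXA11 and -0.21 for ANXA3. In all, 6 of 8 tested annexins differed, against 54% of all genes. Among them ANXA4 (-0.20) turned to 0.045 after the correction and did not pass (edgeR adjusted p = 0.711). ANXA5 (0.05, edgeR adjusted p = 0.0405) lost its call with no filter, upper-quartile scaling, halved counts or a fit of these groups alone. It passed after the correction at 0.24, as did ANXA7 at 0.14, which had not passed as counted. After the correction 27.1% of all genes passed. The change of the enantiomer difference when E2 was present was tested after these values were seen: it was -0.33 (SE 0.025) for ANXA2, 0.38 (SE 0.035) for ANXA6 and 0.27 (SE 0.043) for ANXA11 on the log2 scale, with edgeR adjusted p of 1.21e-15, 4.69e-13 and 4.66e-07. For ANXA3 this change was -0.02, with a 95% interval from -0.16 to 0.12, but 0.25 after the correction (adjusted p = 0.00126). Of 8 tested annexins 4 passed, the fourth being ANXA4, against 47.2% of all genes, and after the correction 5 passed, against 38.1%. These were ANXA2 (-0.26), ANXA3 (0.25), ANXA5 (0.22), ANXA6 (0.22) and ANXA7 (0.22), while ANXA4 (-0.0075) and ANXA11 (0.07) did not.

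**Figure D3:**
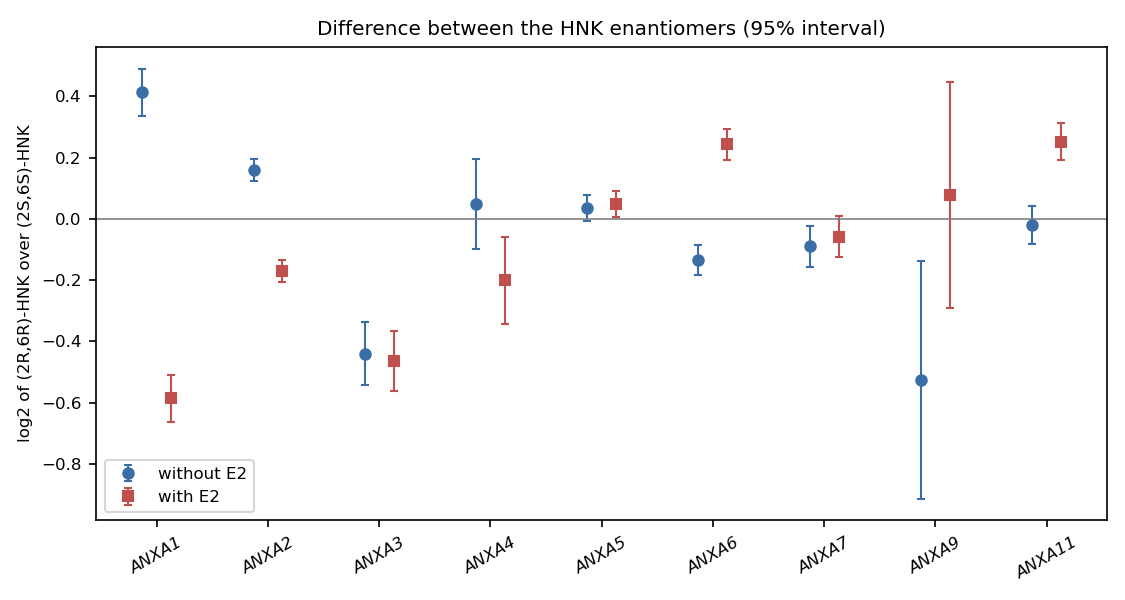
Log2 ratio of (2R,6R)-HNK over (2S,6S)-HNK (vertical axis) for each annexin (horizontal axis), without E2 (blue circles) and with E2 (red squares), with 95% intervals. ANXA1 is at 0.41 without E2 and -0.59 with it, and ANXA3 is near -0.45 in both.

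Ketamine carries an N-methyl group and lacks the ring hydroxyl of these metabolites. ANXA1 was 0.29 (SE 0.038) higher on the log2 scale in ketamine than in (2S,6S)-HNK (edgeR adjusted p = 1.24e-08) and 0.13 (SE 0.037) lower than in (2R,6R)-HNK (edgeR adjusted p = 0.00414), and the second call was lost without the first ketamine or the first (2R,6R)-HNK library. ANXA2 was 0.21 (SE 0.018) lower in ketamine than in (2R,6R)-HNK (edgeR adjusted p = 3.81e-14), and ANXA6 was 0.34 (SE 0.025) lower than in (2S,6S)-HNK (edgeR adjusted p = 2.62e-16). Ketamine differed from (2R,6R)-HNK in 7 of 9 annexins (4 without the first ketamine library), against 45.4% of all genes, and from (2S,6S)-HNK in 7 of 9, against 46.1%. The first 7 include ANXA9, 0.45 higher in ketamine (edgeR adjusted p = 0.0462), whose p became 0.0623 over the 6 pairs and whose call was lost under DESeq2 and RLE scaling. Both counts include ANXA4, which did not pass after the correction (0.09 and 0.14), while ANXA7 then passed against (2R,6R)-HNK (-0.13). The count against (2S,6S)-HNK includes ANXA2 at -0.05, a call lost with no filter, upper-quartile scaling or a fit of these groups alone. After the correction 36.8% and 40.5% of all genes passed. With E2, ketamine differed from (2R,6R)-HNK in 4 of 8 tested annexins, against 52%, and from (2S,6S)-HNK in 6 of 9, against 66.8%. ANXA11 was 0.60 (SE 0.030) higher in E2+ketamine than in E2+(2S,6S)-HNK (edgeR adjusted p = 1.71e-23). For ANXA1 that pair differed by -0.01, with a 95% interval of -0.08 to 0.07 (edgeR adjusted p = 0.910), but by 0.31 after the correction (adjusted p = 6.79e-12).

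Adding E2 to a compound changed the annexins in different ways. ANXA1 was 0.77 (SE 0.039) lower on the log2 scale in E2+(2R,6R)-HNK than in (2R,6R)-HNK, given with no test, 0.23 (SE 0.039) higher in E2+(2S,6S)-HNK than in (2S,6S)-HNK (edgeR adjusted p = 1.27e-06, lost after the correction at 0.02) and -0.06 (SE 0.038) different between E2+ketamine and ketamine (edgeR adjusted p = 0.172). The last of these became 0.13 after the correction (adjusted p = 0.00219). ANXA2 fell by 0.36 (SE 0.018) when E2 joined (2R,6R)-HNK (edgeR adjusted p = 1.32e-22) and rose by 0.09 (SE 0.018) when it joined ketamine (edgeR adjusted p = 7.94e-06). ANXA11 fell by 0.34 (SE 0.030) when E2 joined (2S,6S)-HNK (edgeR adjusted p = 2.10e-13) and rose by 0.25 (SE 0.030) when it joined ketamine (edgeR adjusted p = 1.66e-10). ANXA6 fell by 0.29 (SE 0.025) with (2S,6S)-HNK (edgeR adjusted p = 3.11e-14) and rose by 0.34 (SE 0.025) with ketamine (edgeR adjusted p = 5.47e-17). After the correction these ANXA6 values were smaller, at -0.14 and 0.18, and both passed again. The annexins that passed were 6 of 9 for ketamine (57.5% of all genes), 5 of 8 for (2R,6R)-HNK (47.9%, and 3 without the first library of either condition) and 5 of 9 for (2S,6S)-HNK (51.3%). After the correction 40.1%, 48.9% and 27.9% of all genes passed. ANXA4 then did not pass for ketamine or (2R,6R)-HNK, nor ANXA1 or ANXA3 for (2S,6S)-HNK. Instead ANXA1 and ANXA7 passed for ketamine, ANXA11 for (2R,6R)-HNK and ANXA2 and ANXA7 for (2S,6S)-HNK. The interaction, that is the effect of E2 on top of a compound minus its effect on top of vehicle, passed for 5 of 8 annexins with ketamine (37.5% of all genes), 5 of 8 with (2R,6R)-HNK (56.6%) and 4 of 8 with (2S,6S)-HNK (65.1%). After the correction the same 5 annexins passed with ketamine (33.5% of all genes). With (2R,6R)-HNK all tested annexins but ANXA9 then passed (42.8%), and with (2S,6S)-HNK all but ANXA3 and ANXA9 (38.3%). As counted, ANXA2 and ANXA3 were above 0 in all 3, ANXA2 at 0.51, 0.06 and 0.39, and ANXA3 at 0.55, 0.58 and 0.60. After the correction ANXA2 stood at 0.40, -0.05 and 0.20, all past the test, and ANXA3 at 0.28, 0.21 and -0.04, the last of which did not pass (adjusted p = 0.658). Single libraries decided the smallest of these: without any one of the libraries involved other than the first vehicle library, 2 or 3 annexins passed for (2R,6R)-HNK in place of 5.

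The genes with which annexins work did not move as one. Of 20 annexin partners 18 were tested, and 7 rose and 6 fell in E2, 5 and 5 in ketamine, 8 and 5 in (2R,6R)-HNK, 10 and 6 in (2S,6S)-HNK, 9 and 6 in E2+ketamine and 5 and 11 in E2+(2S,6S)-HNK. Over all genes 24% to 34.3% rose and 32.5% to 37.4% fell in these treatments. After the correction the partners that rose and fell numbered 7 and 5 in E2, 7 and 7 in ketamine, 6 and 5 in (2R,6R)-HNK, 7 and 7 in (2S,6S)-HNK, 8 and 6 in E2+ketamine and 3 and 11 in E2+(2S,6S)-HNK, and over all genes 17.5% to 27.7% rose and 19% to 28.8% fell. S100A10, the partner of ANXA2, stood at 187 CPM in vehicle, 195 CPM in E2, 185 CPM in ketamine and in (2R,6R)-HNK, 213 CPM in (2S,6S)-HNK, 225 CPM in E2+ketamine, 189 CPM in E2+(2R,6R)-HNK and 175 CPM in E2+(2S,6S)-HNK. S100A10 rose by 0.19 (SE 0.027) on the log2 scale in (2S,6S)-HNK and 0.26 (SE 0.027) in E2+ketamine, and it fell by 0.10 (SE 0.027) in E2+(2S,6S)-HNK, with edgeR adjusted p of 3.18e-08, 1.95e-12 and 0.00123, and the fall was lost after the correction. S100A11, a partner of ANXA1 that was chosen after its values were seen, rose in E2, both HNK forms alone and E2+ketamine by 0.17 to 0.59 on the log2 scale. It fell by 0.10 in E2+(2S,6S)-HNK (edgeR adjusted p = 0.00811) and differed by -0.06 in ketamine (edgeR adjusted p = 0.150). Its rises and that fall passed again after the correction, but the fall was lost under upper-quartile scaling, in a fit of the 2 groups alone, and without the second vehicle or the first E2+(2S,6S)-HNK library. AHNAK, a giant scaffold bound by the ANXA2 and S100A10 complex, fell from 3799 CPM in vehicle to between 1977 and 3332 CPM in the 6 tested treatments, by 0.19 in E2 to 0.94 in E2+ketamine on the log2 scale (SE 0.019 to 0.020, edgeR adjusted p = 3.15e-12 and 6.57e-39). MYOF, a ferlin of membrane repair, fell from 509 CPM to between 256 and 399 CPM, by 0.35 to 0.99 on the log2 scale (edgeR adjusted p = 1.12e-17 in E2 and 1.35e-35 in E2+ketamine). Both fell in all 6 tested treatments and again after the correction. CAPN1, a calpain, rose by 0.26 to 0.67 in 5 treatments and fell by 0.15 in E2+(2S,6S)-HNK, with the rise held after the correction in E2 and turned to -0.14 in (2S,6S)-HNK. CHMP4B, a membrane-cutting ESCRT protein, differed by -0.14 to 0.01. Other genes of these kinds on the list went the other way. DYSF, also a ferlin, rose in all 6 tested treatments by 0.15 to 0.69 on the log2 scale. CAPN2, also a calpain, fell in all 6 by 0.41 to 0.67. Both passed edgeR's test in each and are given as counted only.

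On the side of ANXA1, its receptors were close to absent, with 2 to 28 counts a library for FPR1, 0 to 2 for FPR2 and 0 to 6 for FPR3. Of 14 genes in the list of receptors, phospholipases A2 and glucocorticoid response, 11 were tested, and 3 to 5 rose and 3 fell in each of the 6 tested treatments, and 2 to 5 rose and 2 to 4 fell after the correction, beside the shares over all genes given for the partners. NR3C1, the glucocorticoid receptor, stood at 103 CPM in vehicle and 49.1 to 78.2 CPM in the 6 tested treatments, a fall of 0.40 in ketamine to 1.07 in E2+ketamine on the log2 scale (edgeR adjusted p = 1.48e-13 and 2.55e-29). After the correction the fall of NR3C1 held in (2S,6S)-HNK (-0.33), E2+ketamine (-0.32) and E2+(2S,6S)-HNK (-0.24) and was lost in the other 3. FKBP5, a textbook glucocorticoid target, fell in all 6 by 0.37 to 0.88, also after the correction. PER1, another glucocorticoid target, rose in all 6 by 0.39 to 1.23, and after the correction the rise held in (2S,6S)-HNK (0.75) and E2+(2S,6S)-HNK (0.65) and turned to -0.15 in E2+ketamine. DUSP1 rose in all 6 by 0.11 to 0.75, and PLA2G6, a calcium-independent phospholipase A2, rose from 2.87 CPM to between 4.33 and 5.67 CPM, by 0.59 to 0.98 on the log2 scale, each held after the correction except DUSP1 in E2+(2S,6S)-HNK and PLA2G6 in E2.

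Of 14 genes of plasmin generation 12 were tested, and 2 to 6 rose and 3 to 8 fell in the 6 tested treatments, where 24% to 34.3% of all genes rose and 32.5% to 37.4% fell. After the correction (17.5% to 27.7% and 19% to 28.8% of all genes) 4 to 9 rose and 2 to 4 fell, with 4 and 4 in place of 3 and 8 in E2+(2S,6S)-HNK and 9 and 2 in place of 6 and 3 in E2+ketamine. PLAT, the tissue plasminogen activator that binds the ANXA2 complex, rose in 5 of the 6 by 0.14 to 0.39 and differed by 0.04 in (2R,6R)-HNK. The last became -0.095 after the correction, and none of the rises turned sign. ENO1, a glycolytic enzyme that also binds plasminogen, differed by -0.16 to 0.43 and passed edgeR's test in all but ketamine. After the correction ENO1 stood below vehicle at -0.11 in E2, -0.095 in ketamine, -0.012 in (2R,6R)-HNK and -0.068 in (2S,6S)-HNK. PLAUR, the urokinase receptor, fell by 0.24 in ketamine, 0.13 in (2S,6S)-HNK and 0.38 in E2+(2S,6S)-HNK and rose by 0.23 in E2+ketamine, with edgeR adjusted p of 4.08e-05, 0.0253, 9.58e-09 and 4.53e-05. The rise of PLAUR turned to -0.21 after the correction, its 3 falls held, and the fall in (2S,6S)-HNK did not pass under DESeq2, RLE or upper-quartile scaling. PLG, plasminogen itself, had 0 counts in every library.

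**Figure D4:**
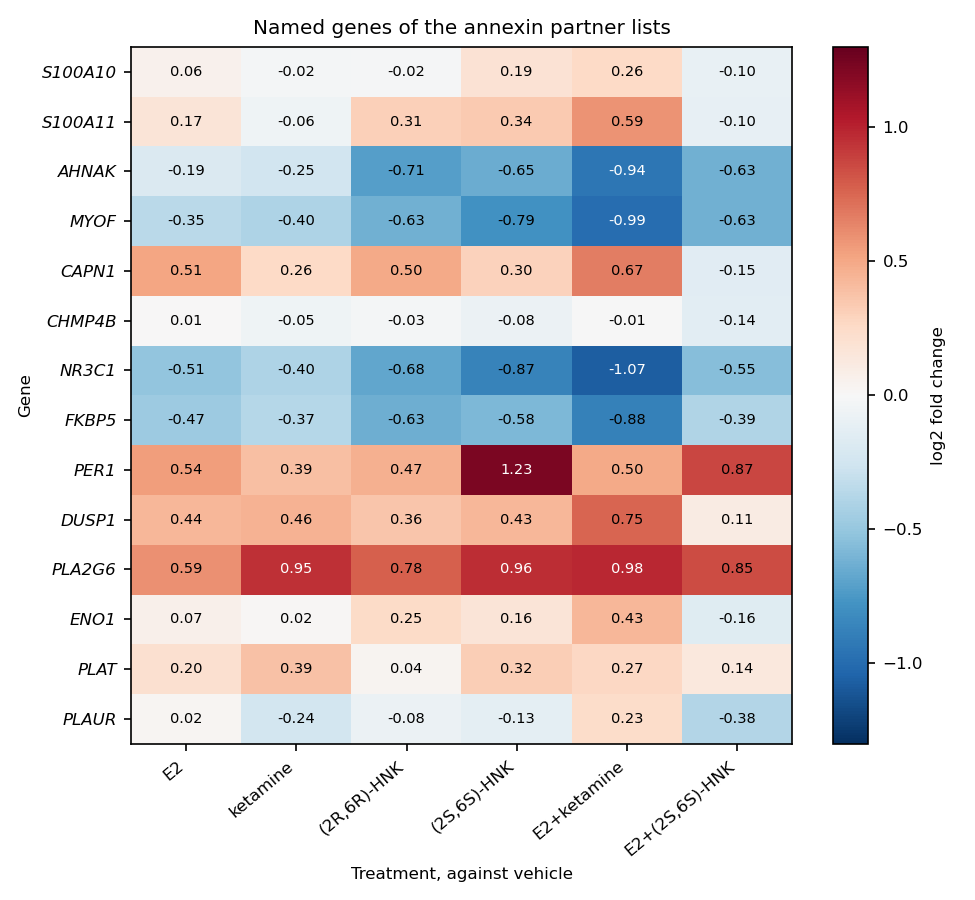
Log2 fold change against vehicle of named genes of the 3 lists (vertical axis) in the 6 tested treatments (horizontal axis), with the value in each cell. DYSF and CAPN2 are not shown. AHNAK, MYOF, NR3C1 and FKBP5 are below 0 in all 6, and PER1, DUSP1 and PLA2G6 above 0 in all 6.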

How the data were processed

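RNA from HMC3 cells was sequenced as 100 bp paired reads from libraries made with a kit that amplifies cDNA. The authors deposited raw gene counts. The submitters' processing notes name TopHat2 2.0.14, Bowtie2 2.2.6 and featureCounts 1.4.6, and the study's methods name hg19 and other versions of the first pair. Counts of uniquely mapped pairs favour even numbers at low levels: 65.8% of counts from 1 to 9 were even, against 49.9% of counts of 500 or more, and halved counts were tried as an alternative. Gene positions are from a GRCh37 annotation, in which 21539 of 25370 symbols matched and 1465 more by an older symbol.

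All 16 libraries were fitted together in edgeR 4.0.16 (R 4.3.3) with TMM scaling, filterByExpr, a mean for each of 8 groups and quasi-likelihood tests. P-values were adjusted by Benjamini-Hochberg over the 16004 genes tested, at 0.05. The common biological coefficient of variation was 2.81%. Levels are CPM, and RPKM between genes. Alternatives were DESeq2 1.42.0, no filter, at least 10 counts in every library, RLE and upper-quartile scaling, a replicate block, a loess correction (span 0.5) for exon GC content and length, only the groups compared, and leaving out each library. In data simulated for ketamine against vehicle with 16004 genes and 200 changed by 1.5 on the log2 scale, edgeR recovered 89% with 12 false calls. With a GC trend added, 8256 false calls were made, and 5 after the correction. That trend was linear in the same exon GC values that the correction uses and was added to the ketamine libraries only. The changed genes were drawn without regard to GC content, and no trend in length was added. The simulation therefore cannot show whether the correction also removes true changes that follow GC content. The named genes are all 9 annexins, the 4 of highest mean CPM in each list, and list genes of at least 5 CPM differing by 1 or more from vehicle. S100A11, DYSF, CAPN2, FPR1, FPR2, FPR3 and PLG were named outside this rule, after their values were seen. Of the lists, 1 marker gene and 1 other gene are not reported here and were left out of the counts and sums of their lists. The members and lists were chosen with earlier results of these data known, and the comparison of the enantiomer difference with and without E2 was added after the values were seen. Libraries of one group differed by more than sampling noise, with a chi-square per gene of 2.69 to 4.92. Counts of 0 and low counts cover counting error only.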

Additional observations from a re-analysis of the deposited data

Results flagged for a closer look

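Annexins other than ANXA1 are given here where the effect of E2, or the difference between the mirror-image metabolites, differed between conditions in edgeR's test of the difference itself, and ANXA9 passed in none of the 4 comparisons. Over all genes 37.5% passed for E2 with ketamine, 56.6% with (2R,6R)-HNK, 65.1% with (2S,6S)-HNK and 47.2% for the enantiomer difference, so such a difference was common. After the correction for exon GC content and length the shares were 33.5%, 42.8%, 38.3% and 38.1%. All values are on the log2 scale.

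The effect of E2 on top of ketamine minus that on top of vehicle was 0.51 for ANXA2, 0.55 for ANXA3, -0.36 for ANXA4, 0.28 for ANXA5 and 0.21 for ANXA6. After the correction for exon GC content and length these became 0.40, 0.28, -0.55, 0.099 and 0.23, and all 5 kept their sign and call. On top of (2R,6R)-HNK the same difference was 0.060 for ANXA2, 0.58 for ANXA3, -0.24 for ANXA4, 0.11 for ANXA7 and -0.37 for ANXA11. ANXA5 (-0.28) and ANXA6 (0.12) passed after the correction but not as counted. After the correction ANXA2 (-0.053) and ANXA7 (-0.24) passed in the opposite direction, and the calls of ANXA2, ANXA4 and ANXA7 were lost without most single libraries. On top of (2S,6S)-HNK it was 0.39 for ANXA2, 0.60 for ANXA3, -0.42 for ANXA6 and -0.64 for ANXA11. After the correction these became 0.20, -0.043 (adjusted p = 0.658), -0.095 and -0.43. ANXA4 (-0.64), ANXA5 (-0.49) and ANXA7 (-0.46) passed after it but not as counted. The enantiomer difference with E2 minus that without E2 was -0.33 for ANXA2, -0.25 for ANXA4, 0.38 for ANXA6 and 0.27 for ANXA11, and the calls of ANXA4 and ANXA11 were lost after the correction. ANXA3 (0.25), ANXA5 (0.22) and ANXA7 (0.22) passed after it but not as counted.

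For ANXA1, E2 lowered the level against vehicle in both libraries, while both E2+(2S,6S)-HNK libraries lay above both (2S,6S)-HNK libraries. The difference of these effects was 1.27 as counted and 0.59 after the correction, and this difference was not tested, since the family was picked by ANXA1 against the same vehicle libraries. After the correction ANXA1 stood at -0.57 in E2 against vehicle, while its rise in E2+(2S,6S)-HNK over (2S,6S)-HNK no longer passed the test. The corrected difference therefore came mainly from the fall in E2.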

How the results depend on the processing

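The correction for exon GC content and transcript length turned more signs than any other alternative, and the cause of the relation of the counts to GC content was not tested. Under it 67 of 264 log2 differences of 9 annexins and 14 list genes turned sign, 54 of them with a call before or after or, where no test was made, from a value over 2 standard errors. These 54 follow. Against vehicle they became in E2 ANXA3 0.095, ANXA5 0.17, ANXA6 -0.044, ANXA7 0.25, CHMP4B -0.092, ENO1 -0.11 and PLAUR -0.20. In ketamine they became ANXA3 0.17, ANXA5 0.19, ANXA7 0.16, CAPN1 -0.020, S100A10 0.15 and ENO1 -0.095. In (2R,6R)-HNK they became ANXA6 -0.017, ANXA7 0.29, S100A10 0.098, PER1 -0.0072, ENO1 -0.012 and PLAT -0.095. In (2S,6S)-HNK they became ANXA3 0.43, ANXA5 0.37, ANXA7 0.38, CAPN1 -0.14 and ENO1 -0.068. In E2+ketamine they became ANXA3 0.55, ANXA5 0.46, ANXA7 0.37, PER1 -0.15 and PLAUR -0.21. In E2+(2R,6R)-HNK they became ANXA3 0.28, ANXA5 0.28 and ANXA7 0.30. In E2+(2S,6S)-HNK they became ANXA5 0.044, ANXA7 0.17 and S100A10 0.013. The differences became ANXA4 0.045 and ANXA7 0.14 for E2+(2R,6R)-HNK against E2+(2S,6S)-HNK, ANXA7 0.067 for E2+ketamine against E2+(2R,6R)-HNK, ANXA1 0.31, ANXA3 0.067, ANXA4 0.23 and ANXA7 0.20 for E2+ketamine against E2+(2S,6S)-HNK and ANXA1 0.13 and ANXA7 0.21 for E2+ketamine against ketamine. The interactions of E2 became ANXA1 -0.12, ANXA2 -0.053, ANXA5 -0.28, ANXA6 0.12 and ANXA7 -0.24 with (2R,6R)-HNK and ANXA3 -0.043, ANXA4 -0.64, ANXA5 -0.49 and ANXA7 -0.46 with (2S,6S)-HNK, and the change of the enantiomer difference became ANXA3 0.25. The block together with the correction turned the same signs with values that differ after rounding only for ANXA3 (-0.044, interaction of E2 and (2S,6S)-HNK), S100A10 (0.14, ketamine against vehicle), PER1 (-0.0077, (2R,6R)-HNK against vehicle) and PLAT (-0.094, (2R,6R)-HNK against vehicle).

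With upper-quartile scaling 22 signs turned, 7 of them with a call by the same measure: ANXA6 0.076 (ketamine against vehicle), ANXA5 0.074 ((2S,6S)-HNK against vehicle), ANXA5 0.061 (E2+ketamine against vehicle), ANXA2 -0.00044 (interaction of E2 and (2R,6R)-HNK), S100A10 0.063 (ketamine against vehicle), S100A10 0.0040 (E2+(2S,6S)-HNK against vehicle) and S100A11 6.8e-05 (E2+(2S,6S)-HNK against vehicle). ANXA5 in E2+ketamine became 0.050 with DESeq2 and 0.051 with RLE scaling. Annexins that passed numbered 8 in (2S,6S)-HNK with the correction, with or without the block (56.2% of all genes in both), and 3 for the interaction with (2R,6R)-HNK under RLE scaling (56.2%). Leaving out single libraries left 3 to 6 for E2+(2S,6S)-HNK against vehicle (51.6% to 53.9% of all genes), 4 to 6 for ketamine against (2R,6R)-HNK (37.3% to 38%), 3 to 5 for E2+(2R,6R)-HNK against (2R,6R)-HNK (38.8% to 40%) and 2 to 5 for the interaction with (2R,6R)-HNK (51.5% to 52.8%). Under DESeq2, which the study used, 17 signs turned, 1 of them with a call. Libraries of the same number share only a number: their deviations from the condition means correlated at -0.0258 to 0.0451, and the replicate block left 6 annexins passing in E2 (62.4% of all genes), 7 in ketamine (59.1%), 6 in (2R,6R)-HNK (66.6%), 4 in (2S,6S)-HNK (67.8%), 5 in E2+ketamine (71.5%) and 5 in E2+(2S,6S)-HNK (59.4%). ANXA4 in the interaction with (2R,6R)-HNK lost its call under the block (adjusted p = 0.0524).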

Other observations

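Other genes of the table carry annexin names and are no members of the 9. ANXA8, an annexin of stratified epithelia, stood at 1.59 and 2.10 CPM in vehicle and at 3.97 to 4.81 CPM in ketamine, a rise of 1.25 (SE 0.16) on the log2 scale with an edgeR adjusted p of 3.63e-09. It also rose in E2 (0.52), (2R,6R)-HNK (0.60) and (2S,6S)-HNK (0.62). Its near-identical copy ANXA8L1 rose by 0.86 (SE 0.18) in ketamine with an edgeR adjusted p of 7.06e-05. Only uniquely mapped read pairs were counted, and how many were lost or misplaced between the 2 copies is not known. ANXA2R, named as an ANXA2 receptor, rose by 0.83 (SE 0.15) in ketamine with an edgeR adjusted p of 4.27e-06 and stood at 2.62 and 2.84 CPM in vehicle. ANXA2R also rose in E2 (0.54), (2R,6R)-HNK (0.49) and E2+ketamine (0.53), and differed by -0.29 in E2+(2S,6S)-HNK (edgeR adjusted p = 0.130). ANXA2P2, the processed copy of ANXA2, stood at 10.6 and 11.1 CPM in vehicle and differed from it by -0.36 to -0.76 on the log2 scale in the 7 treatments. These 4 genes were chosen after their values were seen. Their values are given as counted only, with no GC and length correction and no fit without single libraries. Between 59.3% (ketamine) and 71.7% (E2+ketamine) of all genes passed the test against vehicle in the 7 treatments.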
